A study of Mus musculus with 6 samples.

Results

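Cyclic nucleotide phosphodiesterases are enzymes that break down the second messengers cAMP and cGMP. The genes described here are Pde1a, Pde1c, Pde2a, Pde3a, Pde3b, Pde4a, Pde4b, Pde4d, Pde5a and Pde8a, 10 of the 24602 genes in the deposited expression table, and they were picked by symbol. They were measured in poly(A) RNA from left ventricles of mice of the wild type, 5 weeks after a sham operation (3 libraries) or after transverse aortic coarctation (TAC, 3 libraries), a narrowing of the aorta that puts a pressure load on the left ventricle. The comparison asks how the genes differ between the loaded and the sham-operated ventricle. The sources used here give no age, sex, strain or cardiac function. The labels number the libraries within each group and do not say that each came from its own mouse, so a p-value measures only the spread between these libraries, which may be technical.

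In a cardiac myocyte, adrenergic receptors raise cAMP through adenylyl cyclases, and cAMP activates protein kinase A, which phosphorylates proteins of contraction and calcium handling. Nitric oxide and natriuretic peptides raise cGMP, which activates protein kinase G. Phosphodiesterases end both signals and hold them to small regions of the cell. The PDE4 and PDE8 families act on cAMP, PDE5 acts on cGMP, and the PDE1, PDE2 and PDE3 families act on both, with PDE1 switched on by calcium and calmodulin, PDE2 stimulated by cGMP and PDE3 inhibited by it.

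Among the 10 genes, Pde8a rose in TAC, from 7.08 ± 1.56 to 19.0 ± 5.20 CPM (SD, n = 3 each). Pde4a was lower, at 107 ± 23.1 CPM in sham and 68.0 ± 10.4 CPM in TAC, with groups that did not overlap. It did not pass in edgeR (adjusted p = 0.0715) and passed in DESeq2 over the same genes (adjusted p = 0.0198). Pde2a, the gene with the most transcript per length, went from 115 ± 31.9 to 99.3 ± 26.3 CPM with overlapping groups. The other 7 genes were below 1 FPKM on average, and in edgeR none of them passed a test over a wider set of genes (0 of 7 at an unadjusted p under 0.05). CPM are estimated counts as a rate over the library total, scaled by the TMM method, and compare libraries. FPKM are the deposited rates per length of transcript and are used here only to compare genes with each other, unless stated.

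Library totals of the deposited estimated counts ran from 64023153 to 69992502. Mitochondrially encoded genes took 14.8% to 19.2% of them in sham and 22.6% to 29.2% in TAC. TAC replicate 3 stood apart from the other TAC libraries. The chi-square per degree of freedom over genes was 418 and 490 between it and the others, against 71.1 between those. Sham replicate 1 likewise stood apart from the other sham libraries, with 345 and 406 against 133. Markers of ventricular myocytes were abundant in every library, the 12 listed genes summing to 88554 to 96117 CPM in sham and 64485 to 84816 CPM in TAC, lowest in TAC replicate 3. None of the 12 passed in edgeR (0 at an unadjusted p under 0.05, 0 in DESeq2). In edgeR's quasi-likelihood test, 615 of the 8795 genes that averaged at least 1 FPKM (6.99%) differed at an adjusted p under 0.05, 414 higher (4.71%) and 201 lower (2.29%) in TAC. Without TAC replicate 3 the number was 1705, and without sham replicate 2 it was 12. Only 3 of the 10 phosphodiesterase genes were in that set. Pde8a, with a mean FPKM of 3.02, was the lowest inside the filter, and Pde3a, with 0.917, was the highest outside it. The other 7 were therefore read from a fit over the 14487 genes with a mean of at least 20 estimated counts, of which 833 (5.75%) passed.

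Pde8a lies on chromosome 7 at 81213596 to 81334533 on the plus strand (GRCm38), and the annotation gives it 3 transcripts. Pde4a lies on chromosome 9 at 21165714 to 21213248 on the plus strand, with 5 transcripts. The 250 bases upstream of a RefSeq start of each (GRCm38.p6, plus strand, 5′ to 3′) are shown because these are the genes with the lowest p-values of the 10. They are chr7:81213015-81213264 for Pde8a and chr9:21183851-21184100 for Pde4a, the only one of 3 Pde4a windows with a match. Capitals mark TGACG or its reverse complement CGTCA, the half-site of the cAMP response element.
Pde8a: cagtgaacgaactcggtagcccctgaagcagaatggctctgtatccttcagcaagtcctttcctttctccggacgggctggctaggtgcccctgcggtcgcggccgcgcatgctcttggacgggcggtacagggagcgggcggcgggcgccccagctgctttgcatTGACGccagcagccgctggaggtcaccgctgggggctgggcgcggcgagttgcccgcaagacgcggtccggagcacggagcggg
Pde4a: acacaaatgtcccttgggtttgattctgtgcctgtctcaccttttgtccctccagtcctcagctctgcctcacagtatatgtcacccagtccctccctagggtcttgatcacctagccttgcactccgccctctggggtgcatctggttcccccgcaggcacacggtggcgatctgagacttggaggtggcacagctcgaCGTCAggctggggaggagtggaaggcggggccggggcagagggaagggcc
The match began 84 bases before the start in Pde8a and 50 bases before it in Pde4a. The half-site, searched on both strands, was in 17.8% of 32851 RefSeq windows of this length. It was in 4 of 22 windows of 8 of the phosphodiesterase genes, 1 each of Pde1a, Pde4a, Pde4b and Pde8a. The full palindrome TGACGTCA was in 1.55% of all windows and in 0 of the 22. A match describes the letters only, and no binding was measured in these samples. Pde3a and Pde3b were not among the RefSeq windows used.

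**Figure D1:**
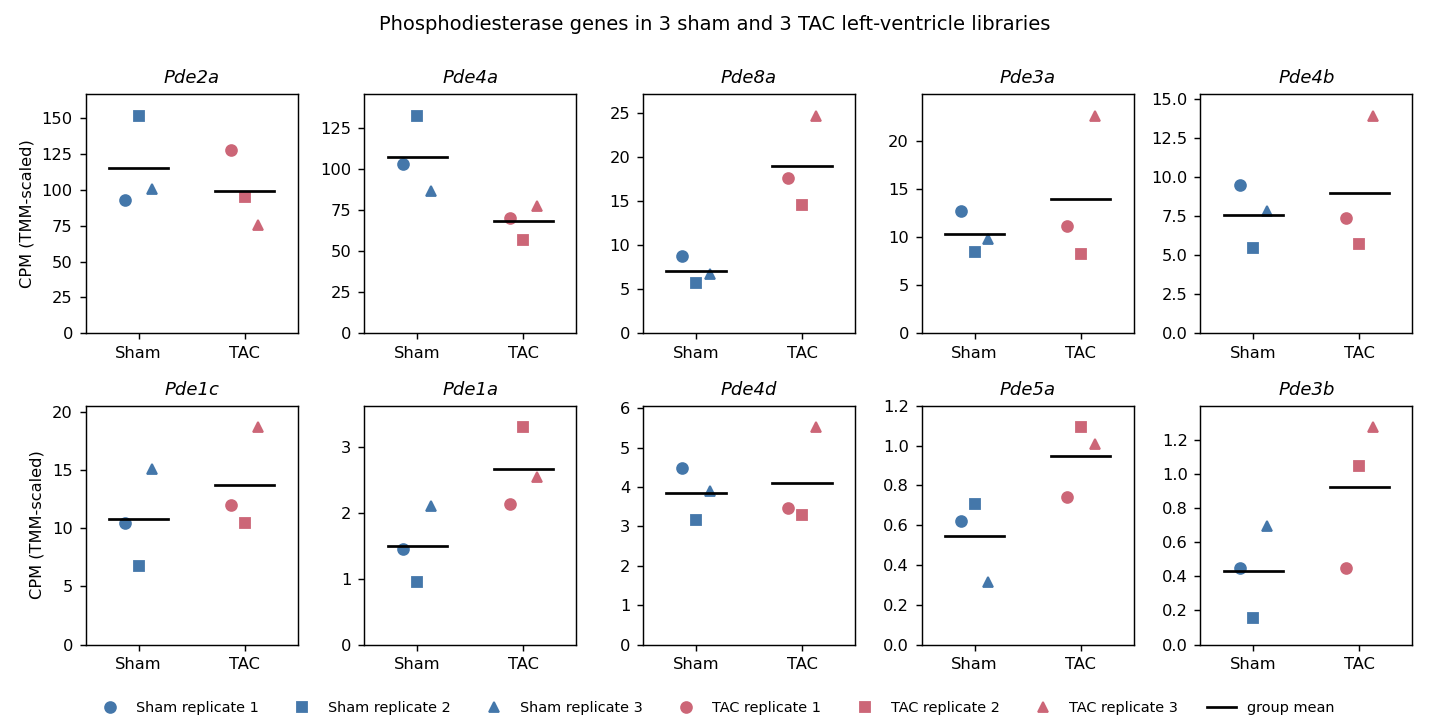
Level in CPM (TMM-scaled, vertical axis from 0) of the 10 phosphodiesterase genes in each of 3 sham and 3 TAC libraries, ordered by falling mean FPKM; points are libraries and bars are group means. Pde8a has all TAC libraries above all sham libraries, Pde4a has them below, and the triangle of TAC replicate 3 is the highest point in 6 of the 10 panels.

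PDE8A hydrolyses cAMP with high affinity. Pde8a stood at 8.77, 5.70 and 6.77 CPM in sham replicates 1, 2 and 3 and at 17.6, 14.5 and 24.7 CPM in TAC replicates 1, 2 and 3. Every TAC library was above every sham library, and TAC replicate 3 was the highest. The log2 fold change was 1.42 ± 0.25 (SE), a fold of 2.68, with an edgeR adjusted p of 0.0251. On the FPKM scale the groups were also separate, at 1.45 to 2.13 in sham and 3.10 to 6.02 in TAC. In this bulk tissue a change in the number of cells of a type and a change in RNA per cell cannot be told apart.

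The rise of Pde8a was smaller without TAC replicate 3, at 1.18 on the log2 scale, and still passed (edgeR adjusted p = 0.0129). It was 1.27 with the libraries' trends over GC content and transcript length removed (edgeR adjusted p = 0.0307). The call was lost without sham replicate 2 (log2 fold change 1.29, edgeR adjusted p = 0.118), without sham replicate 3 (1.39, edgeR adjusted p = 0.0845) and without TAC replicate 1 (1.47, edgeR adjusted p = 0.0742).

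Markers of activated fibroblasts were higher in TAC, as Pde8a was. Of 6 tested genes of activated fibroblasts 5 rose. The sum of all 8 in the list was 38.2 to 59.0 CPM in sham and 150.8 to 405 CPM in TAC. It was highest in TAC replicate 3 like Pde8a, and so were 28.1% of all tested genes. Of 11 fibroblast genes 4 rose and 0 fell, 7 did not pass, and the sums were 2706 to 2845 CPM in sham and 2740, 2735 and 3744 CPM in TAC, above the sham range only in TAC replicate 3. With GC and length trends removed, 4 activated fibroblast genes and 2 fibroblast genes rose. The fit without sham replicate 2 called 12 of 8795 genes. There the activated fibroblast genes Thbs4 and Ltbp2 did not pass (edgeR adjusted p = 0.116 and 0.115). Their log2 fold changes were 2.63 and 3.17, against 2.63 and 3.19 with all libraries. The fibroblast genes Mfap5 and Dcn did not pass either (edgeR adjusted p = 0.118 and 0.134). Their log2 fold changes were 1.38 and 1.13, against 1.39 and 1.31 with all libraries. The part of these marker genes in the rise of Pde8a was not tested.

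PDE4 enzymes are specific for cAMP and sit in complexes with beta-arrestins, kinase anchors and channels. Pde4a stood at 103, 132 and 86.5 CPM in sham replicates 1, 2 and 3. In TAC replicates 1, 2 and 3 it stood at 69.95, 56.8 and 77.4 CPM. Every TAC library was below every sham library, the nearest being sham replicate 3 and TAC replicate 3. The log2 fold change was -0.66 ± 0.19 (SE), a ratio of 0.635, with an edgeR adjusted p of 0.0715 over the 8795 genes. Over the 14487 genes it was -0.77 ± 0.19, with an edgeR adjusted p of 0.0498, and DESeq2 gave an adjusted p of 0.0198.

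Pde4a moved further from sham without TAC replicate 3, at -0.76 on the log2 scale (edgeR adjusted p = 0.0270). Without sham replicate 2, its highest library, the value was -0.48 (edgeR adjusted p = 0.254), and with GC and length trends removed it was -0.45 (edgeR adjusted p = 0.155). Pde4a has a GC content of 56.8%, against 48.1% for Pde8a. The part of these trends and of the higher mitochondrial share of the TAC libraries in the difference was not tested.

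Pde4b and Pde4d encode the other PDE4 enzymes among the 10, and PDE4D is known to bind the ryanodine receptor complex. Pde4b stood at 9.51, 5.49 and 7.81 CPM in sham and at 7.41, 5.71 and 13.9 CPM in TAC. Pde4d stood at 4.48, 3.17 and 3.90 CPM in sham and at 3.47, 3.29 and 5.52 CPM in TAC. In both genes the groups overlapped, and TAC replicate 3 was above every other library. The log2 fold changes were 0.14 ± 0.32 for Pde4b (edgeR adjusted p = 0.810) and -0.02 ± 0.25 for Pde4d (edgeR adjusted p = 0.974). Without TAC replicate 3 they were -0.29 and -0.26, and neither passed. In summed FPKM, Pde4a made up most of the 3 PDE4 genes, whose total was 15.1 ± 3.23 in sham and 9.19 ± 2.34 in TAC. That total leaves out Pde4c, and FPKM is not scaled for the higher mitochondrial share in TAC.

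PDE2A lowers cAMP when cGMP is high and so links both messengers. Its record in the table covered chromosome 7 at 101421691 to 101512827. Pde2a stood at 92.9, 151 and 100.2 CPM in sham and at 128, 94.8 and 75.5 CPM in TAC, with the highest library in sham and the lowest in TAC and overlap between them. Its log2 fold change was -0.21 ± 0.24 (edgeR adjusted p = 0.622). Without sham replicate 2 it was 0.04.

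Pde2a shared 64.32% of its 6149 exonic bases with a read-through record on the same strand, Gm45837, so its own counts are uncertain. The sham libraries had 3396, 0 and 1439 estimated counts for Gm45837 and the TAC libraries 0, 2174 and 1468. The libraries where it was listed at 0, sham replicate 2 and TAC replicate 1, were the highest of their groups for Pde2a alone. With both records added, the level was 142, 151 and 122 CPM in sham and 128, 129 and 95.8 CPM in TAC. The SD in sham went from 31.9 CPM for Pde2a alone to 15.0 CPM for the sum, and in TAC from 26.3 to 18.7 CPM. The groups still overlapped, and the log2 fold change of the sum was -0.24 ± 0.16 (edgeR adjusted p = 0.380). On the FPKM scale the sum was 21.3 to 26.4 in sham and 17.0 to 20.4 in TAC, without overlap. FPKM is not scaled for the higher mitochondrial share in TAC, and the median log2 difference of all tested genes on the log2(FPKM + 1) scale was -0.13.

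**Figure D2:**
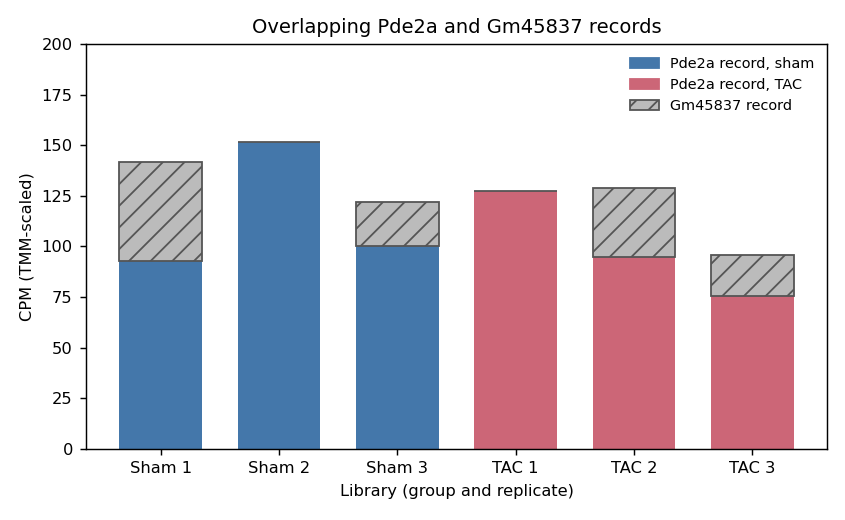
CPM of the Pde2a record (coloured) and of the overlapping read-through record Gm45837 (grey, hatched) stacked for each of the 6 libraries. Gm45837 is at 0 in sham replicate 2 and TAC replicate 1, and the stacked sums run from 95.8 to 151 CPM with overlap between the groups.

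PDE1 enzymes respond to calcium through calmodulin. Pde1a stood at 1.45, 0.943 and 2.09 CPM in sham and at 2.13, 3.29 and 2.54 CPM in TAC. In CPM all TAC libraries were above all sham libraries, by a small margin between sham replicate 3 and TAC replicate 1. In FPKM these 2 libraries were in the other order, at 0.340 in sham replicate 3 and 0.305 in TAC replicate 1. In edgeR the log2 fold change was 0.73 ± 0.34 (edgeR adjusted p = 0.195), and 0.22 with GC and length trends removed. Pde1c stood at 10.4, 6.77 and 15.1 CPM in sham and at 12.0, 10.5 and 18.7 CPM in TAC, with overlap (0.24 ± 0.30, edgeR adjusted p = 0.633). Without TAC replicate 3 the Pde1c value was -0.02.

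PDE3 enzymes are the targets of the inotropic drug milrinone, and PDE3A is the one tied to the calcium pump of the sarcoplasmic reticulum. Pde3a stood at 12.8, 8.50 and 9.78 CPM in sham and at 11.1, 8.27 and 22.6 CPM in TAC. TAC replicate 1 was within the sham range, TAC replicate 2 was just below it, and TAC replicate 3 was above every other library. The log2 fold change of Pde3a was 0.32 ± 0.33 (edgeR adjusted p = 0.545) with all libraries, -0.17 without TAC replicate 3, and -0.21 with GC and length trends removed. Of its exonic bases 5.82% overlap a record on the other strand. Pde3b had between 11 and 92 estimated counts per library, or 0.446, 0.155 and 0.692 CPM in sham and 0.447, 1.05 and 1.27 CPM in TAC. Its groups overlapped, and its log2 fold change was 0.996 ± 0.605 (edgeR adjusted p = 0.308).

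PDE5A, the cGMP-specific enzyme inhibited by sildenafil, had among the lowest levels of the 10 genes. Pde5a had 21 to 50 estimated counts per sham library and 43 to 73 per TAC library, or 0.619, 0.704 and 0.316 CPM in sham and 0.739, 1.09 and 1.01 CPM in TAC. The groups did not overlap in CPM, and the gap between sham replicate 2 and TAC replicate 1 was small. In FPKM they overlapped, with 0.0727 in sham replicate 2 and 0.0637 in TAC replicate 1. Pde5a had a log2 fold change of 0.69 ± 0.44 (edgeR adjusted p = 0.335).

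Of the 3 genes in the main set, edgeR called Pde8a (higher) and did not call Pde2a or Pde4a, while DESeq2 called Pde8a and Pde4a. In 2 of the 3 the groups did not overlap (Pde8a above, Pde4a below), beside 34.8% of all 8795 genes (17.7% above, 17.1% below). Of the 10 genes, in the fit over 14487 genes, 1 rose (Pde8a), 1 was called lower (Pde4a) and 8 did not pass. Over all genes in that fit 5.75% were called, 3.3% higher and 2.45% lower. In CPM the groups did not overlap in 4 of the 10 (Pde1a, Pde5a and Pde8a above, Pde4a below), against 34.4% of all genes in the fit, 22.4% above and 12% below. The CPM of every gene were scaled with TMM factors from the 8795 genes. In FPKM the groups of Pde1a and Pde5a overlapped. The median log2 fold change of the 10 was 0.28, against 0.02 over all genes. It was -0.02 with GC and length trends removed and -0.08 without TAC replicate 3. TAC replicate 3 was the highest library in 6 of the 10 genes and in 33.9% of all genes in the fit.

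**Figure D3:**
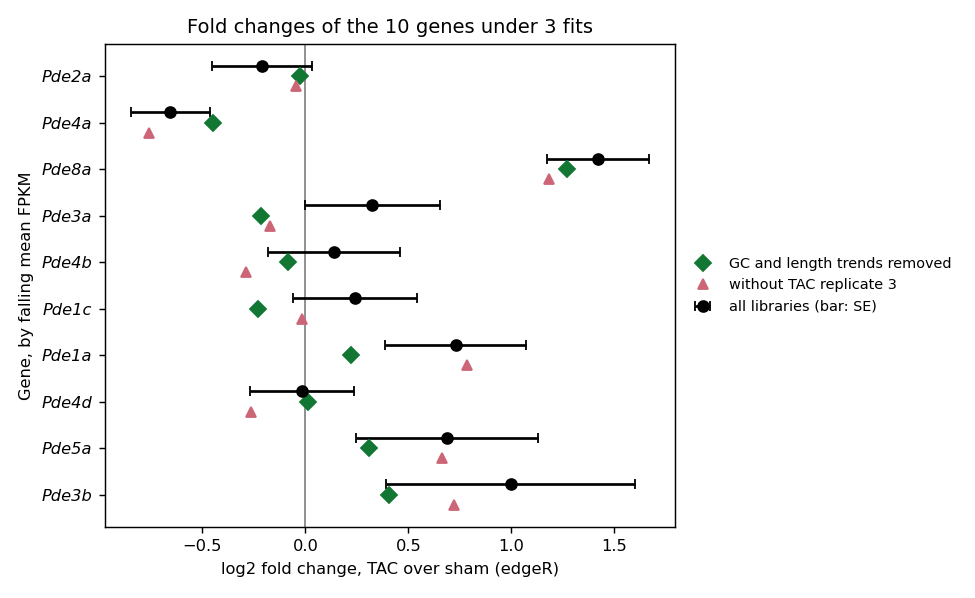
log2 fold change (horizontal axis, TAC over sham, edgeR) of each gene with all libraries (circle, bar: SE), with GC and length trends removed (diamond) and without TAC replicate 3 (triangle). Pde8a lies to the right and Pde4a to the left of 0 in all 3, while Pde1c, Pde3a, Pde4b and Pde4d change sign.

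Per length of transcript, the order of the genes by mean FPKM over the 6 libraries was Pde2a (16.6), Pde4a (11.1), Pde8a (3.02), Pde3a (0.917), Pde4b (0.752), Pde1c (0.567), Pde1a (0.320), Pde4d (0.313), Pde5a (0.0709) and Pde3b (0.0689). In sham, Pde2a (18.8 ± 5.76 FPKM) and Pde4a (14.1 ± 3.39) overlapped, and both were well above Pde8a (1.75 ± 0.347), whose range lay above that of Pde3a (0.811 ± 0.154). Further down, Pde3a, Pde4b, Pde1c, Pde4d and Pde1a each overlapped with the next, as did Pde5a with Pde3b, and Pde1a lay above Pde5a. In TAC, Pde2a (14.4 ± 3.07) lay above Pde4a (8.09 ± 1.79) without overlap, and Pde4a lay above Pde8a (4.30 ± 1.53), with 6.41 FPKM as the lowest Pde4a value and 6.02 as the highest of Pde8a. Below Pde8a the neighbours Pde3a, Pde4b, Pde1c, Pde1a and Pde4d again overlapped. These Pde2a values exclude Gm45837. With it added, Pde2a was at 21.3 to 26.4 FPKM in sham and lay above Pde4a (11.2 to 17.8) without overlap there too.

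In the make-up of the summed FPKM of the 10 genes, 3 genes had shares that did not overlap between the groups. Pde4a made up 39.8%, 38.1% and 35.0% in sham and 24.6%, 25.4% and 30.1% in TAC, on average 37.6% ± 2.41 and 26.7% ± 2.95. Pde8a made up 6.41%, 3.10% and 5.19% in sham and 11.7%, 12.3% and 18.2% in TAC, on average 4.90% ± 1.67 and 14.1% ± 3.56. Every TAC library was below sham for Pde4a and above it for Pde8a. Pde5a, at 0.146% ± 0.0440 and 0.293% ± 0.0905, was also above. For each of these 3 the exact 2-sided permutation test gave p = 0.1, the smallest that 3 against 3 libraries allow. Pde2a took 49.8% ± 4.90 in sham and 48.4% ± 10.4 in TAC (exact permutation p = 0.9). With Gm45837 added to Pde2a, the Pde4a share was 32.6% and 23.6% and the Pde8a share 4.11% and 12.4%, again without overlap. The Pde5a share (0.126% and 0.253%) did not overlap there either. Nor did that of Pde1a (0.591% and 1.17%), which overlapped without Gm45837. A share depends on the other genes, so these values are not independent of each other. The summed FPKM of the 10 genes was 37.3 ± 8.17 in sham and 30.2 ± 4.33 in TAC. The groups overlapped, at 32.0 to 46.7 and 25.2 to 33.2, and FPKM is not scaled for the higher mitochondrial share in TAC.

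**Figure D4:**
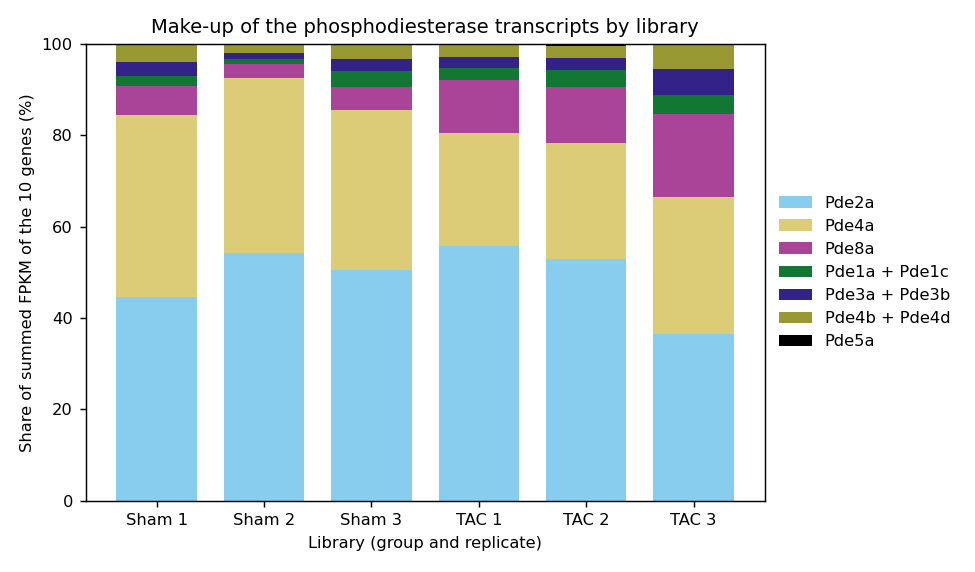
Share of the summed FPKM of the 10 phosphodiesterase genes (vertical axis, percent) taken by each gene or family in each library. The Pde4a share is 35.0% to 39.8% in sham and 24.6% to 30.1% in TAC, and the Pde8a share is 3.10% to 6.41% and 11.7% to 18.2%.

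The table also held 10 other phosphodiesterase genes of 13 looked for, and none of the 7 tested in the fit over 14487 genes passed in edgeR. In that fit 0 of the 7 had an unadjusted p under 0.05, and DESeq2 called 0. Pde9a, which encodes a cGMP-specific enzyme, was the only one that averaged at least 1 FPKM, at 3.60, 4.27 and 3.61 CPM in sham and 5.36, 5.34 and 4.15 CPM in TAC, with overlap (log2 fold change 0.37 ± 0.20, edgeR adjusted p = 0.274). Pde7a, which encodes a cAMP-specific enzyme, stood at 4.52, 1.59 and 4.14 CPM in sham and 6.19, 4.71 and 7.59 CPM in TAC. Its groups did not overlap in CPM but did in FPKM (0.75 ± 0.36, edgeR adjusted p = 0.200). Pde7b (0.51), Pde8b (0.22), Pde10a (0.20), Pde4c (0.15) and Pde1b (0.08) had positive log2 fold changes and did not pass. Pde8b, the closest relative of Pde8a, was at 1.47 ± 0.411 and 1.83 ± 0.0986 CPM with overlapping groups. Pde11a had 0 estimated counts in each sham library and 8, 12 and 44 in TAC, and with Pde6g and Pde6h it was too low to test.

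Around the phosphodiesterases, 7 lists held 84 genes of the pathway, of which 53 were tested. Of these 2 rose and 2 fell in this edgeR fit, 7.55%, beside 6.99% of all tested genes, a share near the background. Over the 14487 genes edgeR called 5.75%. There it called 4 of 14 effectors, 2 of 18 kinase anchors and partners, 1 of 7 cGMP synthesis genes, 1 of 11 kinase substrates and none in the other lists. DESeq2 over the main set called 1648 of 8786 genes. Of the lists it called 5 of 10 effectors, 4 of 13 anchors and partners, 3 of 9 transcription genes, 1 of 11 substrates, 1 of 2 exporters and no others. The lists were chosen with earlier results of these data known.

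Adenylyl cyclases make cAMP, and types 5 and 6 are the main cardiac ones. None of the 4 tested passed with all libraries in edgeR (1, Adcy6, at an unadjusted p under 0.05, and 0 in DESeq2), and the median log2 fold change was -0.30, against -0.01 over all tested genes. Adcy6 stood at 193, 176 and 198 CPM in sham and at 90.1, 86.6 and 184 CPM in TAC. Adcy5 stood at 150.0, 173 and 131 CPM in sham and at 97.2, 95.6 and 146 CPM in TAC. In both genes TAC replicates 1 and 2 were below every sham library and TAC replicate 3 was within the sham range. The log2 fold changes were -0.65 ± 0.28 for Adcy6 (edgeR adjusted p = 0.172) and -0.42 ± 0.20 for Adcy5 (edgeR adjusted p = 0.207). Without TAC replicate 3, Adcy5, Adcy6 and Adcy9 fell, with -1.10 for Adcy6 (edgeR adjusted p = 0.00301) and -0.65 for Adcy5 (edgeR adjusted p = 0.0182). That fit called 1705 of 8795 genes, 892 of them lower, against 615 and 201 with all libraries.

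The enzymes that make cGMP had 4 tested genes, with a median of -0.06 and none called in edgeR (0 at an unadjusted p under 0.05, 0 in DESeq2). For the natriuretic peptide receptor gene Npr2 the log2 fold change was -0.06 ± 0.14, and for the endothelial nitric oxide synthase gene Nos3 it was -0.07 ± 0.19. The signs of both depend on the scaling or trends used. Without TAC replicate 3 the Nos3 value was 0.12.

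Among the effectors of cAMP and cGMP, 1 of 10 tested genes rose and 1 fell, with a median of -0.02. Prkaca, the catalytic alpha subunit of protein kinase A, stood at 300.1, 353 and 321 CPM in sham and at 192, 185 and 209 CPM in TAC. Popdc3, a cAMP-binding membrane protein gene of the Popeye family, stood at 17.9, 14.7 and 17.6 CPM in sham and at 24.7, 30.8 and 26.9 CPM in TAC. Neither gene had overlapping groups. Prkaca fell by 0.73 ± 0.13 on the log2 scale (edgeR adjusted p = 0.0262), and Popdc3 rose by 0.72 ± 0.16 (edgeR adjusted p = 0.0387). Both still passed without TAC replicate 3 and with GC and length trends removed. Both lost the call with the replicate block (edgeR adjusted p = 0.0606 for Prkaca and 0.0870 for Popdc3) and without sham replicate 2 (0.122 and 0.159), sham replicate 3 (0.0825 and 0.103), TAC replicate 1 (0.103 and 0.0959) or TAC replicate 2 (0.0660 and 0.0943). Popdc3 also lost it without sham replicate 1 (0.0679), over the 14487 genes (0.0570) and in limma on log2(FPKM + 1) (limma adjusted p = 0.0606).

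Of 13 tested kinase anchors and phosphodiesterase partners, 1 rose and none fell, with a median of 0.02. The riser was Calm2, 1 of the 3 genes of calmodulin, which switches on PDE1. Calm2 stood at 22.6, 16.2 and 15.8 CPM in sham and at 30.9, 33.8 and 36.8 CPM in TAC, with no overlap. Its log2 fold change was 0.90 ± 0.18 (edgeR adjusted p = 0.0323), and 0.38 with GC and length trends removed (edgeR adjusted p = 0.205), a fit in which the anchor gene Akap12 was called higher. The Calm2 call was also lost without sham replicate 2 (edgeR adjusted p = 0.141), sham replicate 3 (0.102), TAC replicate 1 (0.0870) or TAC replicate 2 (0.0642).

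None of 9 tested genes of cAMP-responsive transcription passed in edgeR, with a median of 0.01. At an unadjusted p under 0.05 there were 3 (Atf1, Crtc1 and Ppargc1a), and DESeq2 called 3. The clock gene Per1 had a log2 fold change of -0.38 ± 0.28 (edgeR adjusted p = 0.408), and without TAC replicate 3 it fell by 0.79 (edgeR adjusted p = 0.0141). The immediate early gene Nr4a1 had 1.23 ± 0.64 (edgeR adjusted p = 0.246), and TAC replicate 3 alone was at 79.3 CPM against 9.26 to 25.3 CPM in the other libraries. Without that library the Nr4a1 value was 0.16.

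Of 11 cardiac substrates of the kinase 1 fell, with a median of 0.09. It was Kcnq1, the pore subunit of a repolarising potassium channel whose complex holds a kinase anchor, at 76.5, 91.0 and 91.5 CPM in sham and 44.9, 38.4 and 58.7 CPM in TAC. In edgeR the log2 fold change was -0.87 ± 0.18 (edgeR adjusted p = 0.0341), and -0.67 with GC and length trends removed (edgeR adjusted p = 0.117). The Kcnq1 call was kept without TAC replicate 3 and lost without any other single library (edgeR adjusted p 0.0508 to 0.141). Of the 2 transporters that export cyclic nucleotides, Abcc4 stood at 10.1, 8.95 and 8.31 CPM in sham and 13.0, 13.7 and 15.0 CPM in TAC. Its groups did not overlap, and it did not pass (0.61 ± 0.16, edgeR adjusted p = 0.0585). Abcc5 had a log2 fold change of 0.03 ± 0.17, with a sign that depends on the setting.

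**Figure D5:**
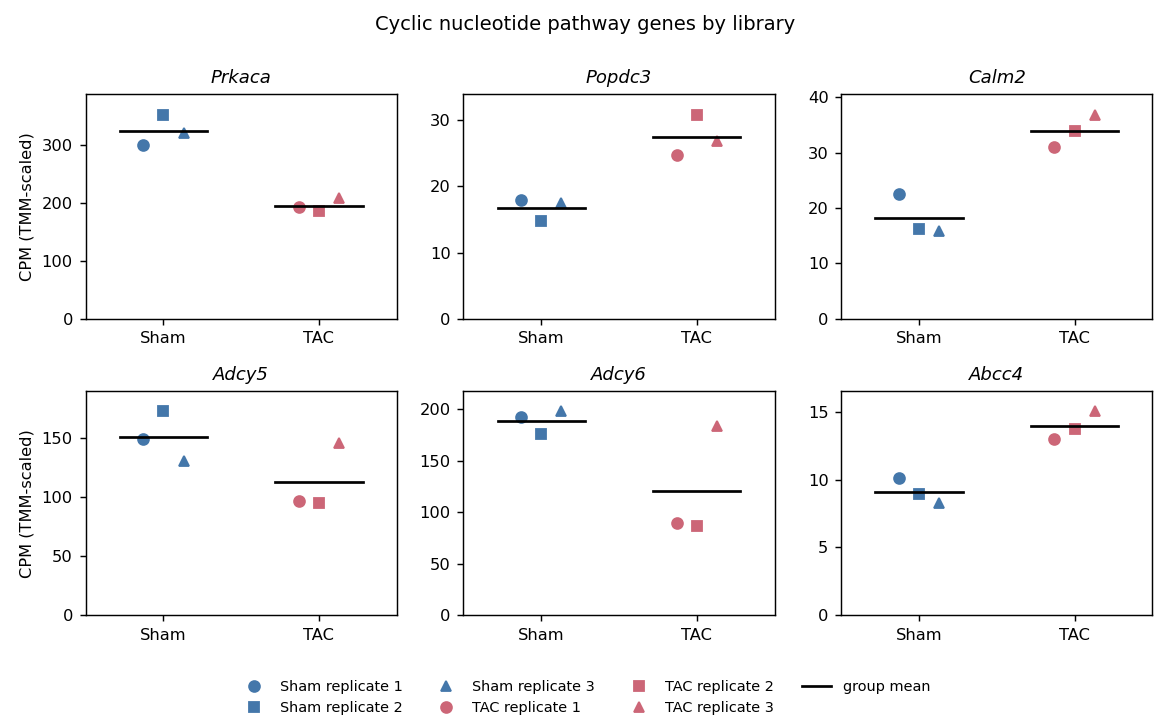
CPM (TMM-scaled, vertical axis from 0) of 6 genes of the cyclic nucleotide pathway in each library; points are libraries and bars are group means. Prkaca is lower and Popdc3 and Calm2 are higher in all TAC libraries, while TAC replicate 3 is near sham for Adcy5 and Adcy6.

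The tested genes whose profile over the 6 libraries was most like that of Pde8a, by the root mean square difference of centred log2 CPM, were Pdlim5 (0.0878), Nupr1 (0.0944) and Rtn4 (0.102), against a median of 0.768 over all tested genes. Those most like Pde4a were Itga3 (0.0506), Fgd1 (0.0668) and Zfp142 (0.0745), against a median of 0.450. Pdlim5, Nupr1 and Rtn4 had log2 fold changes of 1.38, 1.54 and 1.46 and rose. Itga3, Fgd1 and Zfp142 had -0.67, -0.70 and -0.68 and did not pass. These genes were picked for their match over the same 6 libraries, sham and TAC together. A distance below the median and a fold change near that of the member therefore follow from the choice.

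Markers of other cells in the ventricle varied between libraries. Of 12 endothelial genes 1 rose (Tek), and their sum was 1387 to 1518 CPM in sham and 1908, 1899 and 1182 CPM in TAC, lowest in TAC replicate 3. Without that library 6 endothelial genes rose (Tek, Pecam1, Eng, Egfl7, Emcn and Kdr), and with GC and length trends removed 0 did. One of 8 pericyte genes (Rgs5), 1 of 6 smooth muscle genes (Cnn1) and 1 of 8 macrophage genes (Lgals3) rose. With GC and length trends removed, Rgs5 went from 1.05 to 0.44 on the log2 scale (edgeR adjusted p = 0.194) and Lgals3 did not pass (edgeR adjusted p = 0.0531), while Cnn1 did. Without TAC replicate 3, 3 smooth muscle genes rose, and 2 pericyte genes rose and 1 fell. The fit without TAC replicate 3 called 813 of 8795 genes higher and 892 lower, against 414 and 201 with all libraries. Of 8 atrial genes Nppa rose and Sbk2 fell. The median log2 fold change of the 8 was -1.16, while their list summed to 1533 to 2350 CPM in sham and 3047 to 6637 CPM in TAC. Of those sums Nppa made up 424 to 874 CPM in sham and 1229.7 to 2542 CPM in TAC. Of 2 neuron and glia genes 1 fell (Dbh). Without sham replicate 2 none of Tek, Rgs5, Cnn1, Lgals3, Nppa, Sbk2 and Dbh passed (edgeR adjusted p 0.0665 to 0.182). Each kept the sign of its log2 fold change, and that fit called 12 of 8795 genes. Lymphocyte genes summed to 3.42 to 6.55 CPM in sham and 4.13 to 6.06 CPM in TAC, and adipocyte genes to 1.09 to 6.77 and 1.22 to 2.41 CPM, with 0 lymphocyte genes and 1 adipocyte gene (not called) above the filter. No listed gene with a row in the table was at 0 in all 6 libraries. The part of these markers in the phosphodiesterase values was not tested.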

How the data were processed

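Poly(A) RNA libraries from the left ventricle were grouped by their labels into 3 sham and 3 TAC. The submitters' processing notes name cutadapt 1.9, HISAT2 2.0.4, StringTie 1.3.4d and the build GRCm38. The annotation release, the strand setting and the way the count columns were made were not found in the labels or headers. Per the file headers, the deposited table gives each of 24602 genes its FPKM (the authors' normalization by length and library) and, as whole numbers, its estimated counts.

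The 8795 genes that averaged at least 1 FPKM were tested with edgeR 4.0.16 in R 4.3.3 (TMM, estimateDisp, glmQLFit, glmQLFTest), with Benjamini-Hochberg adjustment over all of them and a threshold of 0.05. For the 7 phosphodiesterase genes under this filter, and for other phosphodiesterases, the same fit was run on the 14487 genes with a mean of 20 or more estimated counts, a filter chosen after the data were seen. An SE is the size of the log2 fold change over the root of the F statistic. Alternatives were other scalings, DESeq2 1.42.0, limma 3.58.1 on log2(FPKM + 1) and log2(FPKM + 0.1), other filters, removal of trends over GC content and length (lowess, span 0.3, 3 rounds, GENCODE M21 values for 24532 genes), the replicate number as a block, merging of the Gm45837 and Pde2a records, and leaving out each library. The fits were tested on simulated data.

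The named genes are all 10 members, all other cyclic nucleotide phosphodiesterase genes in the table, for each pathway list every called gene up to the 4 with the lowest adjusted p or else the 2 with the highest mean FPKM, and up to 2 called genes for each marker list. Adcy1, Adcy9, Akap12, Atf1, Crtc1, Gucy1b1 and Ppargc1a were named after their values were seen. The members and lists were chosen with earlier results of these data known. Every value column of the table belonged to a sample. Promoter windows are from RefSeq (GRCm38.p6), which held 8 of the 10 members.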

Additional observations from a re-analysis of the deposited data

How the results depend on the processing

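Of the phosphodiesterase genes 1 was called in the fit reported. The count was 2 with DESeq2 and 2 over genes with a mean of 20 or more estimated counts (Pde4a added in both), and 0 with the replicate block and trend removal together or with a mean FPKM of 5 or more, where Pde8a is not tested. It was 0 to 2 when single libraries were left out. Over all genes the count was 615, and 1648 with DESeq2, 250 with GC and length trends removed, 285 with no filter, 211 at a mean FPKM of 5, and 12 to 1705 without single libraries.

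Deviations of same-numbered libraries from their group means correlated at -0.17, 0.18 and -0.13, and those of differently numbered libraries at -0.29 to 0.32. With 3 libraries per group these values cannot decide whether same-numbered libraries were paired. With the replicate block 183 genes were called and Pde8a kept its call (1.41, edgeR adjusted p = 0.0364). With the block and trend removal there were 73, and Pde8a had 1.25 (edgeR adjusted p = 0.0538).

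The balance of calls moved with the fit. In limma on log2(FPKM + 1), which changes the test and the scale together, 174 of 512 calls were higher, against 414 of 615, and the median of all genes was -0.13 (-0.16 with a pseudocount of 0.1). In edgeR, median-of-ratios scaling gave 440 of 641 calls higher and upper-quartile scaling 555 of 719. Upper-quartile scaling of the 14487 genes gave 734 of 934 calls higher, against 478 of 833, with a median of 0.14.

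Log2 fold changes of genes that did not pass changed sign as follows, and the cause was not tested. With trends removed, and with the block as well, the values were -0.23 and -0.18 for Pde1c, -0.21 and -0.25 for Pde3a, -0.0839 and -0.12 for Pde4b, 0.0126 and 0.0037 for Pde4d, 0.0650 and 0.0494 for Npr2, 0.15 and 0.11 for Nos3, and -0.0567 and -0.0612 for Abcc5. Upper-quartile scaling gave 0.10 for Pde4d and 0.0029 for Npr2, and the filter at a mean FPKM of 5 gave 0.0327 for Npr2 and 0.0016 for Nos3. Abcc5 was -0.0608 and -0.11 in limma with pseudocounts of 1 and 0.1, -0.0761 with no filter, -0.0707 at a mean FPKM of 0.1 and -0.0765 at 20 counts. Without single libraries the ranges were -0.0173 to 0.57 for Pde1c, -0.43 to 0.0397 for Pde2a, -0.17 to 0.58 for Pde3a, -0.29 to 0.37 for Pde4b, -0.26 to 0.10 for Pde4d, -0.0938 to 0.25 for Pde1b, -0.0930 to 0.41 for Pde4c, -0.0314 to 0.36 for Pde10a, -0.17 to 0.0269 for Npr2, -0.20 to 0.12 for Nos3 and -0.0924 to 0.14 for Abcc5.

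Pde8a was positive in all 17 alternatives run (0.92 to 1.62) and Pde4a negative in all 18 (-0.79 to -0.44). All of them reuse the same 6 libraries, in which the groups of both genes did not overlap. They are therefore not independent tests of the sign. With Gm45837 added, the difference in share of the summed FPKM moved by less than the larger of the groups' SDs for every gene. Leaving out 1 of 3 libraries cannot move a group mean by more than its SD. That measure therefore says nothing about the values with a library left out. The Pde2a difference, -1.41 percentage points, became 4.53 without TAC replicate 3 and 0.858 without sham replicate 2. The Pde4b difference went from 0.520 to -0.164 without TAC replicate 3, and that of Pde4d from 0.131 to -0.0394 without TAC replicate 3 and -0.0268 without sham replicate 2. Shares from counts per length were not run, because the table used gives no lengths. Pde3b and Pde5a have under 100 estimated counts in every library, which limits their precision.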
